A study of Homo sapiens with 60 samples.

Results

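The genes described here are 36 members of the TGF-beta and YAP response and of the extracellular matrix, followed in A549 cells, an established human lung carcinoma line, after treatment with herbal extracts. The members were taken from a list of symbols and found by Ensembl identifier in the deposited count table; all 36 of the 36 were present, out of 60675 identifiers. They comprised 5 signalling genes, 6 direct TGF-beta or YAP targets, 6 collagens, 5 other matrix and cross-linking genes, 4 integrins, 7 mesenchymal and contractile genes and 3 genes of pericellular proteolysis. RNA was sequenced 24 h after treatment in 60 libraries.

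Each of 8 extracts was given at 3 doses. The hot-water extracts of the herbal formulas Sayeok-tang (3 libraries per dose) and Bojungikgi-tang (2 per dose) were used at 20, 100 and 500 µg/mL. Dried ginger (Zingiberis Rhizoma), fresh ginger (Zingiberis Rhizoma Recens) and Pinelliae Tuber were 70% ethanol extracts used at those same doses, each with 3 libraries. The 70% ethanol extract of Scutellariae Radix had 3 libraries at each of 7.6, 38 and 190 µg/mL. Zizyphi Fructus and Coptidis Rhizoma, named as ethanol extracts in the sample titles, had 1 library per dose. The former was given at 20, 100 and 500 µg/mL, the latter at 4.4, 22 and 110 µg/mL. The extracts were set against 3 vehicle libraries labelled 0.1% DMSO, whereas the series text names 2% DMSO; the sample labels give no DMSO concentration for the extract libraries. The labels name no altered gene and no added TGF-beta, and all groups are 1 cell line in culture. For extracts with an IC20 below the top dose, the series text sets the doses from that IC20. Whether a group's libraries are independent cultures is not stated in the labels, and a p-value here reflects only how much those libraries vary, which may be technical.

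TGF-beta ligands bind a type II receptor, which recruits and phosphorylates the type I receptor. The type I receptor phosphorylates SMAD2 and SMAD3, and these enter the nucleus with SMAD4 and switch on genes that include feedback inhibitors, collagens and fibronectin. YAP and TAZ act with the TEAD factors and respond to cell shape and matrix stiffness; CCN1 and CCN2 are their standard targets, and CCN2 responds to both pathways. In lung epithelium, TGF-beta is known for driving epithelial-mesenchymal transition and matrix deposition, and integrins of the alpha-v family release it from its latent complex.

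The 4 stretches of regulatory sequence below were picked with the changes of their genes known. CCN2 and COL12A1 carry the TEAD motif in their promoters, and with dried ginger CCN2 fell and COL12A1 rose. Any part of the motif in these changes was not tested. PMEPA1, a SMAD target that fell with ginger, carries a SMAD motif in 1 of its 4 annotated promoters. COL4A1 and COL4A2, which fell together with ginger, are transcribed in opposite directions from start sites 127 bases apart. The sequences are from RefSeq on GRCh38.p14 and lie before the start site; each promoter is 250 bases, 5′ to 3′ on the gene's strand. Capitals mark the TEAD motif GGAATG (or its reverse complement) in CCN2 (chr6:131951373-131951622, minus strand, 3 matches) and COL12A1 (chr6:75206054-75206303, minus strand, 1 match). In PMEPA1 (chr20:57710578-57710827, minus strand) capitals mark the SMAD motif CAGACA, 1 match. This promoter was picked from its 4 annotated ones because it held a match. The stretch between the COL4A1 and COL4A2 start sites (chr13:110307158-110307283, plus strand) has no capitals.
CCN2: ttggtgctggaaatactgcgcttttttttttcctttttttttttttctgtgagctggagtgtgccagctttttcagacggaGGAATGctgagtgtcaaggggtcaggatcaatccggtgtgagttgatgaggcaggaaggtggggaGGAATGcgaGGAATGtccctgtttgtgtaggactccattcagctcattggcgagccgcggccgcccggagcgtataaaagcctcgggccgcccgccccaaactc
COL12A1: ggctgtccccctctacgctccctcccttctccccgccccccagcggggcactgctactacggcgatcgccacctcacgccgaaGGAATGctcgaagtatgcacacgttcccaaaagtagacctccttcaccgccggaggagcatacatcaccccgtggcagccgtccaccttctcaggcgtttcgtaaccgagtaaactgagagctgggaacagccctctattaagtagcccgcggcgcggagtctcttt
PMEPA1: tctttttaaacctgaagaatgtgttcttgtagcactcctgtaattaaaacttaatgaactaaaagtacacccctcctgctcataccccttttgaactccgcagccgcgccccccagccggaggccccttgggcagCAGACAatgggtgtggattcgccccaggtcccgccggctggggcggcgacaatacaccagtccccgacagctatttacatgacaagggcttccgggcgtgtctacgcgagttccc
COL4A1 and COL4A2 shared: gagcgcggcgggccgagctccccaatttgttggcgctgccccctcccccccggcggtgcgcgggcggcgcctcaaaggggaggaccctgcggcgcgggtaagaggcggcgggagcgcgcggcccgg

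In windows of 300 bases (250 before and 50 after the start site), searched on both strands (the end letters of 1 motif can also belong to the other), GGAATG was present in 14% of 35116 annotated human promoters and CAGACA in 16.9%. Of the 30 members with such a window, 9 had GGAATG in at least 1 window, against 16.7% of 27305 genes. CAGACA was in 11 of the 30, against 19.9% of genes. SKIL, TGFBI, THBS1 and CCN2, direct targets that also fell with dried ginger, had no match to CAGACA. A gene was counted if any of its windows matched, and members such as TGFBR1 (8 windows) and ZEB1 (7) had more chances of a match. The shares are therefore not like for like, and no enrichment is drawn from them. A match of letters is a description of the sequence and was not tested for binding.

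Levels are given in CPM, the counts of a gene divided by the scaled library total, on 1 scale for all libraries. Per kilobase of exon, the most abundant member was ITGB1, the shared beta-1 integrin chain, with a median of 289 CPM per kb over the 60 libraries, followed by the intermediate filament gene VIM at 185 and the secreted adhesion protein TGFBI at 150 CPM per kb. Among the collagens the order was COL5A2 (58.2 CPM per kb), COL5A1 (10.6), COL4A2 (9.23), COL4A1 (5.85), COL1A1 (3.05) and COL12A1 (0.94). LOX and SNAI2 were near the floor, at 0.354 and 0.154 CPM per kb. All 36 members passed the filter on low counts in the 3 fits.

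**Figure D1:**
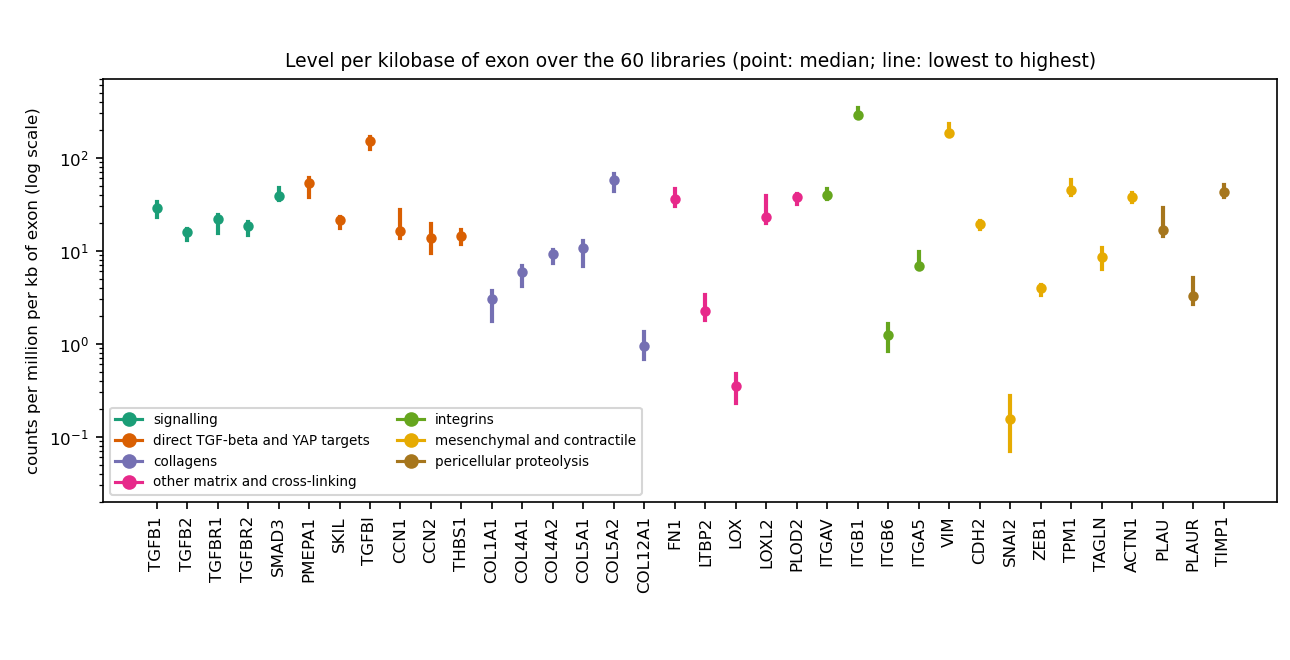
Level of each of the 36 genes per kilobase of exon on a log scale, with the median of the 60 libraries as a point and the lowest to highest library as a line, coloured by role. ITGB1 lies highest (289 CPM per kb) and SNAI2 lowest (0.154 CPM per kb), and the lines are short against the differences between genes.

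Library totals ran between 17.51 and 38.54 M (mega) counts, with 22421 to 24450 genes detected and 8.29 to 15.9% mitochondrial counts. The medium and low doses of Coptis stood apart, with 15.9 and 15% mitochondrial counts, against at most 11.7% in every other library. Replicate 2 of the medium dose of fresh ginger had the lowest total and stood apart from its group, with an SD of log2 deviations of 0.13 against at most 0.0953 in every other replicated library. Of the 6 epithelial markers, the keratins KRT8 and KRT18 ran at 1935 to 3672 CPM and 1537 to 2973 CPM, whereas EPCAM and MUC1 were low, with medians of 5.04 and 1.83 CPM. Endothelial markers summed to at most 0.342 CPM. Of 10 fibroblast markers, DCN, POSTN, PDGFRB and FAP stayed below 0.5 CPM in all libraries, but ACTA2 was at 6.08 to 10.1 CPM, THY1 at 3.52 to 6.23 CPM and COL3A1 at 0.752 to 2.55 CPM. Each value is an average over all cells of a culture, so fewer cells making a transcript and less transcript per cell cannot be told apart.

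Between the high and the low dose of the same extract, 28 of the 36 members were called in at least 1 of the 6 replicated extracts: 12 only higher, 14 only lower and 2 in both directions. Of 16331 genes tested in all 6 extracts, 45.6% were called in at least 1. Calls were made where the adjusted p was below 0.05 in edgeR's quasi-likelihood test, with Benjamini-Hochberg adjustment over all genes of the fit. Over all genes, 6.35% of the pairs of a gene and an extract were called higher and 6.28% lower. Summed over the 6 extracts, collagens gave 14 lower and 3 higher calls of 36 possible, and the direct targets 11 lower and 4 higher of 36. The other matrix and cross-linking genes gave 7 higher and 3 lower calls of 30, 5 of the 7 being LOXL2 and all 3 falls FN1. The proteolysis genes gave 7 higher and 0 lower of 18, and the integrins 4 higher and 0 lower of 24. The signalling genes gave 13 lower and 2 higher calls of 30, and the mesenchymal and contractile genes 4 higher and 1 lower of 42.

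The extracts differed in how many members moved. Dried ginger had 11 members higher and 14 lower at the high dose, where 16.8% and 16% of all genes tested were called in those directions. Scutellaria had 11 higher and 8 lower, against 15.5% and 15.6% of all genes. Sayeok-tang had 5 higher and 8 lower, against 3.82% and 3.77%, and fresh ginger 2 higher and 11 lower, against 1.72% and 1.95%. Bojungikgi-tang had 1 higher and 1 lower, against 0.257% and 0.455%. Pinellia had 1 higher and 0 lower, against 0.0603% and 0.00603%. Set side by side, the direct targets had a median log2 change of -0.219 and the collagens of -0.259 with dried ginger, -0.15 and -0.325 with fresh ginger, and -0.068 and -0.084 with Sayeok-tang. With Scutellaria they were 0.04 and -0.033, with Bojungikgi-tang -0.054 and -0.031, and with Pinellia 0.089 and 0.084. The median over all 36 members lay between -0.14 (fresh ginger) and 0.08 (Pinellia), while that of all genes lay between -0.001 and 0.004.

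**Figure D2:**
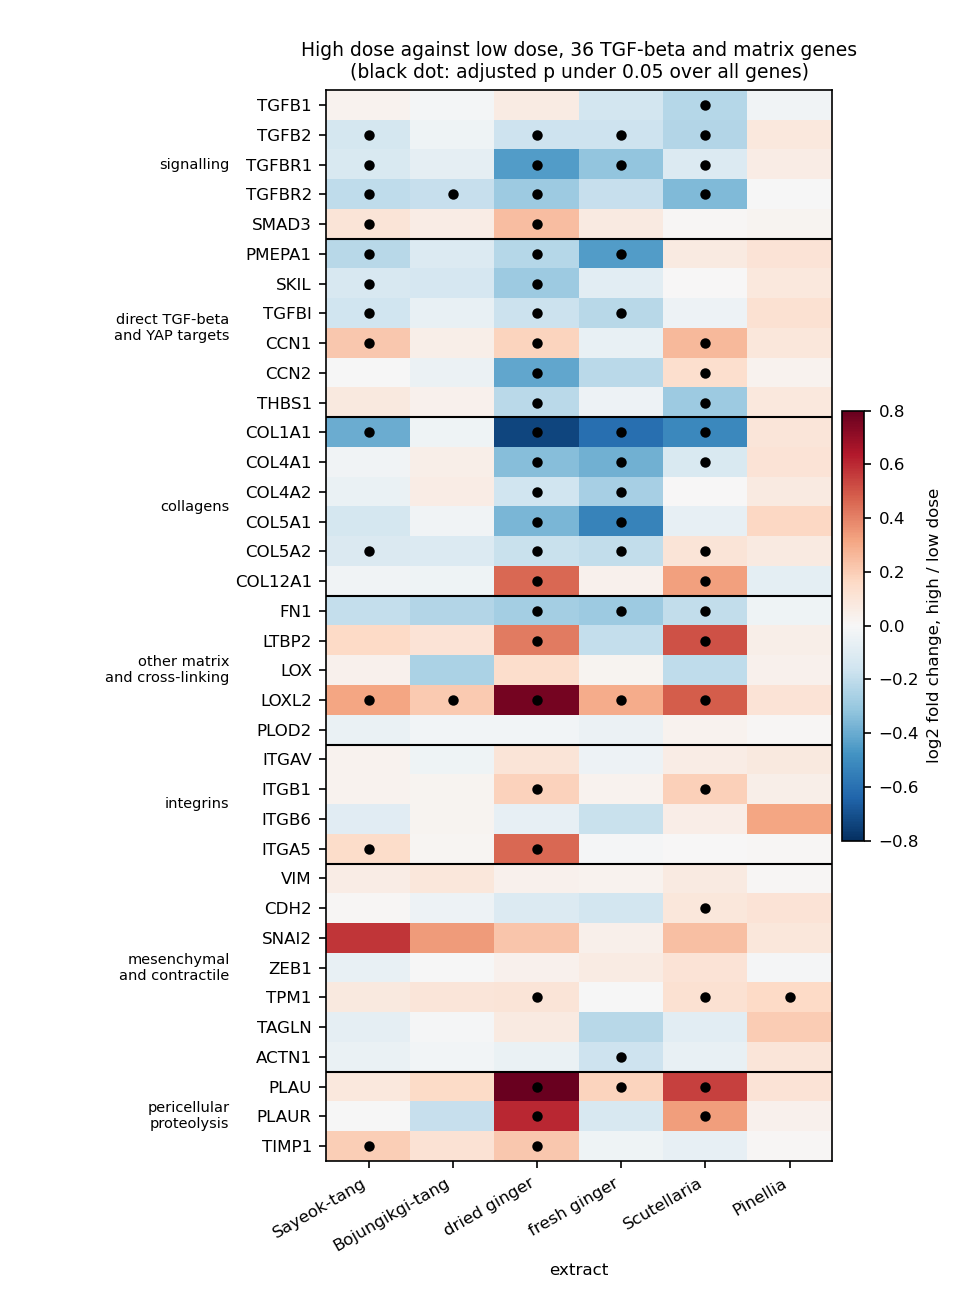
Log2 fold change between the high and the low dose for the 36 genes (rows, grouped by role) in the 6 extracts with replicates (columns), red for higher and blue for lower at the high dose, with a black dot where the adjusted p was under 0.05. COL1A1 is dotted blue in 4 columns and LOXL2 dotted red in 5; Pinellia has 1 dot, for TPM1.

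Among the signalling genes, both receptor genes fell. TGFBR1, the type I receptor (chr9:99104038-99154192 on GRCh38, as for the other genes), had 110, 112 and 116 CPM at the high dose of dried ginger, against 152, 147 and 162 CPM at the low dose. With fresh ginger it had 118, 119 and 127 CPM at the high dose, against 151, 142 and 160 CPM at the low dose. The high- and low-dose libraries did not overlap in either extract, and the log2 changes were -0.45 ± 0.05 (SE, adjusted p = 6.03e-09) with dried and -0.32 ± 0.05 (adjusted p = 2.7e-05) with fresh ginger. Sayeok-tang and Scutellaria gave smaller calls, -0.12 and -0.11; each was lost in some fits that left out 1 library, and the Scutellaria call also without the filter on low counts.

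TGFBR2, the ligand-binding type II receptor (chr3:30606502-30694142), was lower at the high dose in 4 extracts. In Scutellaria it had 72.7, 70.9 and 72.4 CPM at the high dose, against 91.9, 91.6 and 93 CPM at the low dose, a log2 change of -0.35 ± 0.04 (SE, adjusted p = 2.69e-09). The 2 Bojungikgi-tang libraries at the high dose had 83.4 and 80.4 CPM, against 92.3 and 94 CPM at the low dose; this call (-0.19, adjusted p = 0.0201) was lost in all 4 fits that left out 1 library and in the fit of all 60 libraries. Log2 changes in dried ginger and Sayeok-tang were -0.29 and -0.2.

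The ligand gene TGFB2 fell by 0.138 to 0.235 on the log2 scale in Sayeok-tang, dried ginger, fresh ginger and Scutellaria, whereas TGFB1, the main ligand of the family, was called with Scutellaria alone of the 6 (-0.23 ± 0.06, SE, adjusted p = 0.00236). In Sayeok-tang the TGFB2 call was lost with DESeq2 and in 5 of 6 fits that left out 1 library, and in fresh ginger in 4 of 6. In Sayeok-tang the level at the high dose was near vehicle (-0.01), and that at the low dose above it (0.13). The gene TGFB2-OT1 covers 26.6% of the TGFB2 exon bases on the same strand, so TGFB2 values are uncertain to the extent that reads of both were mixed. The opposite-strand gene HNRNPUL1, at a mean of 614 CPM, shares 6.64% of the TGFB1 exon bases. TGFB1 values are uncertain to the extent that HNRNPUL1 reads were counted for it. SMAD3, the receptor-activated mediator, went the other way from the receptors. It had 422, 426 and 417 CPM at the high dose of dried ginger, against 361, 349 and 357 CPM at the low dose, a log2 change of 0.24 ± 0.04 (SE, adjusted p = 1.02e-05), and was also higher with Sayeok-tang (0.105), a call lost in 4 of 6 fits that left out 1 library.

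The direct targets did not move as 1 block. PMEPA1, a feedback inhibitor that keeps SMAD proteins from the receptor (chr20:57648392-57711536; promoter shown above), had 211, 222 and 224 CPM at the high dose of fresh ginger, against 294, 295 and 306 CPM at the low dose. With dried ginger it had 258, 254 and 264 CPM at the high dose, against 296, 304 and 306 CPM at the low dose, and with Sayeok-tang 284, 265 and 266 CPM, against 320, 315 and 313 CPM. The libraries of the high and low dose did not overlap in any of the 3. Log2 changes were -0.45 ± 0.03 (SE, adjusted p = 4.94e-10) in fresh ginger, -0.23 ± 0.03 (7.3e-06) in dried ginger and -0.22 ± 0.03 (4.56e-06) in Sayeok-tang. Scutellaria and Pinellia gave 0.07 and 0.11, and neither was called. The antisense gene NKILA overlaps 6.1% of the PMEPA1 exon bases.

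TGFBI, named for its induction by TGF-beta, fell in the same 3 extracts by 0.16 to 0.22 on the log2 scale. At the high dose of fresh ginger it had 966, 981 and 1016 CPM, against 1148, 1137 and 1168 CPM at the low dose. SKIL, a SMAD co-repressor that is itself induced by TGF-beta, fell with dried ginger (-0.29 ± 0.04, SE, adjusted p = 4.07e-06) and Sayeok-tang (-0.13), and its log2 change with fresh ginger was -0.08 and not called. THBS1, a secreted activator of latent TGF-beta, fell with Scutellaria (-0.29) and dried ginger (-0.21).

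The 2 YAP targets, CCN1 and CCN2, parted with dried ginger, while both were called higher with Scutellaria. CCN1, a matricellular protein, was higher at the high dose of Scutellaria, with 48.7, 46.7 and 46.6 CPM against 41.5, 38.8 and 38.6 CPM at the low dose. It was also higher with Sayeok-tang, with 47.4, 45.4 and 48.9 CPM at the high dose, against 40.2, 39.6 and 41.9 CPM at the low dose, and in neither extract did the 2 doses overlap. Log2 changes were 0.26 ± 0.05 (SE, adjusted p = 4.3e-05) in Scutellaria and 0.22 ± 0.04 (0.00108) in Sayeok-tang. Dried ginger gave 0.18, a call lost when replicate 2 of its low dose was left out (0.14); the high dose was near vehicle (-0.02) and the low dose below it (-0.2).

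CCN2, the connective tissue growth factor with 3 TEAD motifs in the promoter shown, went down with dried ginger. It had 22, 24.2 and 24 CPM at the high dose, against 31.2, 29.9 and 32.4 CPM at the low dose, and the doses did not overlap (-0.41 ± 0.07, SE, adjusted p = 1.57e-05). Fresh ginger gave a log2 change of -0.22, not called, and Scutellaria 0.13 (adjusted p = 0.0375), a call lost in 3 of 6 other settings and in 4 of 6 fits that left out 1 library. In dried ginger, CCN1 and CCN2 were therefore called in opposite directions.

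Most collagen calls were falls, and COL1A1, the alpha-1 chain of fibrillar collagen I (chr17:50183289-50201632), had the lowest log2 change of the 36 members. It had 18.5, 19 and 19.8 CPM at the high dose of dried ginger, against 28.8, 32.6 and 33.8 CPM at the low dose. Fresh ginger gave 17.4, 20.6 and 20.5 CPM at the high dose, against 30.4, 28.8 and 29.9 CPM at the low dose, and Scutellaria 22.6, 20 and 22 CPM, against 27.7, 32.2 and 32.6 CPM. Sayeok-tang gave 25.8, 24.1 and 24 CPM at the high dose, against 31.7, 33.5 and 32.3 CPM at the low dose. In all 4 extracts every high-dose library lay below every low-dose library. Log2 changes were -0.73 ± 0.07 (SE, adjusted p = 9.28e-10) in dried ginger, -0.61 ± 0.07 (6.71e-07) in fresh ginger, -0.52 ± 0.07 (4.57e-08) in Scutellaria and -0.4 ± 0.05 (7.82e-07) in Sayeok-tang. In Bojungikgi-tang and Pinellia the changes were -0.03 and 0.09, and not called.

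**Figure D3:**
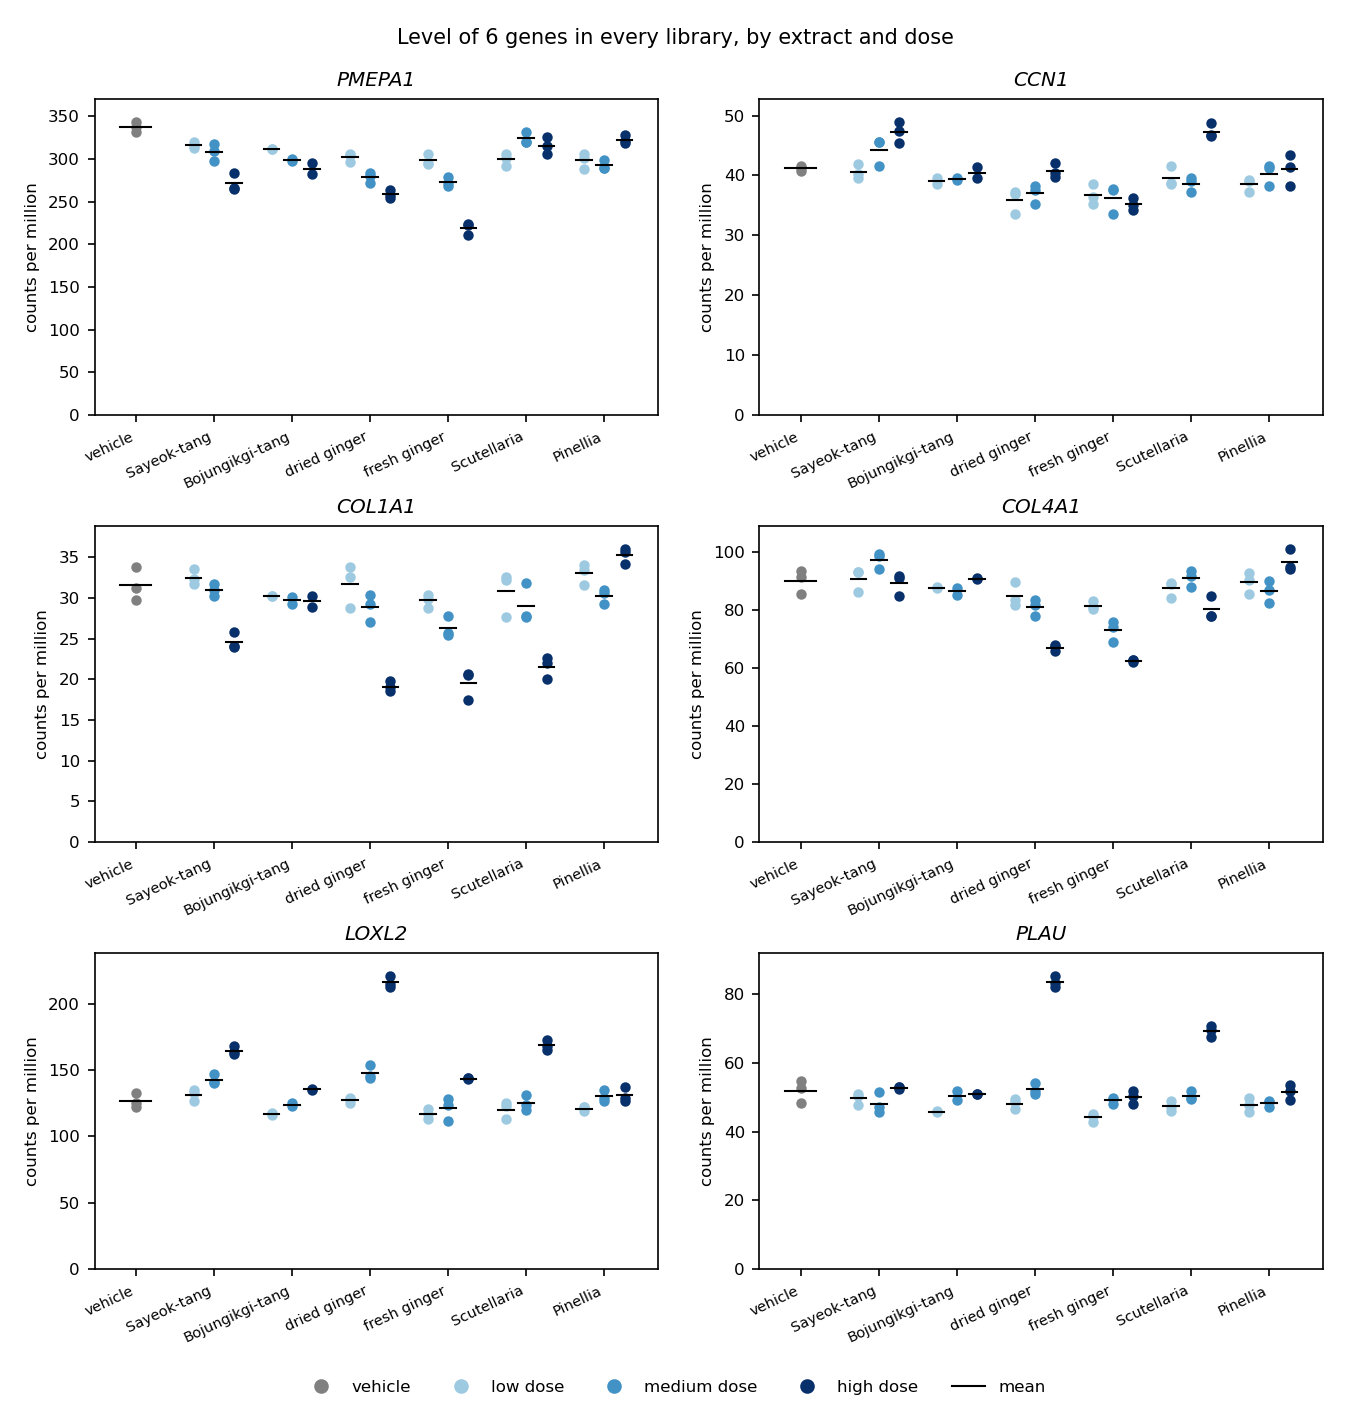
Level in CPM of 6 genes in every library of vehicle and of the low, medium and high dose of the 6 extracts with replicates; points are libraries, black lines are group means and axes start at 0. COL1A1 lies at 17.4 to 20.6 CPM at the high dose of the 2 ginger extracts, below all their other libraries, and LOXL2 and PLAU are highest at the high dose of dried ginger.

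The 2 basement-membrane collagen IV chains fell together with ginger. COL4A1 had 62.2, 62.6 and 62.9 CPM at the high dose of fresh ginger, against 83.1, 81.2 and 80.2 CPM at the low dose, and 67.8, 65.7 and 67.7 CPM with dried ginger, against 83.3, 81.9 and 89.7 CPM. The log2 changes were -0.38 ± 0.04 (SE, adjusted p = 8.11e-07) in fresh and -0.34 ± 0.04 (4.02e-07) in dried ginger, and the doses did not overlap. COL4A2 had log2 changes of -0.27 in fresh and -0.16 in dried ginger, the dried ginger call being lost without replicate 3 of its low dose. The annotated spans of the 2 genes overlap at their starts (chr13:110148963-110307233 and chr13:110305812-110513209) on opposite strands, and whether the counting used strand is not given in the sources used here. With Scutellaria COL4A1 fell by 0.12 on the log2 scale, a call lost in 4 of 6 fits that left out 1 library. COL4A2 gave 0.001 there and was not called.

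COL5A1, the alpha-1 chain of collagen V (chr9:134641774-134844843), which sets the width of collagen I fibrils, had 80.7, 83.4 and 75.8 CPM at the high dose of fresh ginger, against 121, 115 and 112 CPM at the low dose. With dried ginger it had 94.1, 99.5 and 89 CPM at the high dose, against 122, 115 and 127 CPM at the low dose. Neither pair of groups overlapped, and the log2 changes were -0.53 ± 0.05 (SE, adjusted p = 4.06e-08) in fresh and -0.36 ± 0.05 (1.99e-06) in dried ginger. COL5A2, the alpha-2 chain of the same collagen, fell with Sayeok-tang (-0.11), dried ginger (-0.18) and fresh ginger (-0.2) but rose with Scutellaria (0.1). The Sayeok-tang call was lost without the filter on low counts and in the fit of all 60 libraries, and all 3 falls were lost in at least 1 fit that left out a library. COL5A2 was called below vehicle at no high dose.

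COL12A1, a fibril-associated collagen with 1 TEAD motif in the promoter shown, went against the other collagens. It had 14.7, 16.7 and 15.9 CPM at the high dose of dried ginger, against 10.8, 11.1 and 12.4 CPM at the low dose, and 15, 16.5 and 16.1 CPM in Scutellaria, against 11.6, 13.6 and 12.8 CPM. The high-dose libraries were all above the low-dose ones. Log2 changes were 0.46 ± 0.09 (SE, adjusted p = 0.00012) in dried ginger and 0.33 ± 0.08 (0.0015) in Scutellaria.

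Among the other matrix genes, LOXL2, a secreted enzyme that cross-links collagen (chr8:23297189-23425328), was higher at the high dose in 5 of 6 extracts. It had 213, 221 and 215 CPM at the high dose of dried ginger, against 125, 129 and 128 CPM at the low dose. Scutellaria gave 165, 173 and 168 CPM, against 113, 123 and 125 CPM, and Sayeok-tang 164, 162 and 168 CPM, against 135, 133 and 127 CPM. No high-dose library of the 3 overlapped with the low dose. Log2 changes were 0.76 ± 0.04 (SE, adjusted p = 2.02e-14) in dried ginger, 0.48 ± 0.04 (5.91e-13) in Scutellaria and 0.32 ± 0.03 (6.93e-09) in Sayeok-tang, with 0.29 in fresh ginger and 0.21 in Bojungikgi-tang. The Bojungikgi-tang call was lost in 3 of 4 fits that left out 1 library. Pinellia gave 0.11, not called. Against vehicle, LOXL2 was called above at the high dose of 4 extracts (0.05 to 0.77 over the 6), and Bojungikgi-tang was not among them. A neighbour on the same strand, ENTPD4, shares 2.1% of the LOXL2 exon bases.

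LOX, the founding enzyme of that family, and PLOD2, a lysyl hydroxylase that prepares collagen for cross-linking, were not called in any extract. LOX varied between -0.25 and 0.14 on the log2 scale at 1.27 to 2.59 CPM, and PLOD2 between -0.05 and 0.03 at 243 to 308 CPM. LTBP2, a microfibril protein of the latent TGF-beta binding family, had 30.6, 28.1 and 28.6 CPM at the high dose of Scutellaria, against 17.8, 21.7 and 21.7 CPM at the low dose (0.51 ± 0.06, SE, adjusted p = 1.62e-08). With dried ginger it had 25.2, 23.2 and 23.4 CPM, against 17.3, 18.5 and 17.9 CPM (0.42 ± 0.06, adjusted p = 1.92e-06). Both pairs were separate, and fresh ginger gave -0.19, not called.

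FN1, fibronectin, behaved unlike LOXL2. It fell between low and high dose with dried ginger (-0.27 ± 0.07, SE, adjusted p = 0.00392), fresh ginger (-0.29 ± 0.07, 0.0167) and Scutellaria (-0.19 ± 0.03, 1.34e-05), the fresh ginger call being lost in 4 of 6 fits that left out 1 library. At the high dose of fresh ginger it had 624, 616 and 654 CPM, against 757, 760 and 797 CPM at the low dose, while vehicle had 548, 533 and 541 CPM. The high dose thus lay between vehicle and the low dose.

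Of the integrins, ITGA5, the fibronectin receptor chain, had 69.8, 72.6 and 68.5 CPM at the high dose of dried ginger, against 51, 50.1 and 52.4 CPM at the low dose (0.46 ± 0.04, SE, adjusted p = 2.98e-10). It was also called with Sayeok-tang (0.14), a call lost with DESeq2 and in 3 of 6 fits that left out 1 library. Its partner ITGB1 rose with dried ginger (0.18) and Scutellaria (0.19). ITGAV and ITGB6 together form the integrin that releases latent TGF-beta on epithelial cells. Neither was called between high and low dose, with log2 changes of -0.04 to 0.1 and -0.18 to 0.32 over the 6 extracts. ITGAV was called above vehicle at the high dose of 4 extracts (0.05 to 0.24 over the 6). ITGB6 was at 3.93 to 7.59 CPM.

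PLAU, the urokinase protease that converts plasminogen to plasmin (chr10:73909177-73917497), had the largest log2 increase of any member between high and low dose. It had 85.3, 83.4 and 82 CPM at the high dose of dried ginger, against 46.7, 48.5 and 49.4 CPM at the low dose, and in Scutellaria 67.6, 70.8 and 69.7 CPM, against 47.3, 48.9 and 46.1 CPM. The groups lay far apart, with log2 changes of 0.79 ± 0.04 (SE, adjusted p = 1.65e-14) in dried ginger and 0.55 ± 0.04 (1.04e-12) in Scutellaria. Fresh ginger gave 0.18 (adjusted p = 0.0236), lost in 4 of 6 fits that left out 1 library, with the high dose at -0.05 and the low dose at -0.23 against vehicle. PLAUR, the receptor that holds urokinase at the cell surface, had 22.8, 20 and 21.4 CPM at the high dose of dried ginger, against 14.5, 14.1 and 13.8 CPM at the low dose (0.6 ± 0.07, SE, adjusted p = 3.38e-08), and it also rose with Scutellaria (0.33). TIMP1, an inhibitor of matrix metalloproteases, was higher at the high than at the low dose of dried ginger (0.21) and Sayeok-tang (0.2), the Sayeok-tang call being lost without replicate 3 of its low dose. It was above vehicle at no high dose (0.09 and 0.04 in these extracts, not called) and was called below vehicle at the low dose of 4 extracts.

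Few mesenchymal genes were called between high and low dose. In that comparison VIM, ZEB1, SNAI2 and TAGLN were called in none of the 6 extracts, with log2 changes of 0.01 to 0.09, -0.06 to 0.11, 0.04 to 0.57 and -0.22 to 0.2. SNAI2, the SLUG repressor of E-cadherin, was at 0.239 to 0.921 CPM, a depth at which changes of this size were not detectable. Against vehicle, ZEB1 was called above at the high dose of 4 extracts (0.14 to 0.19 over the 6) and TAGLN below at that of 5 (-0.65 to -0.08). TPM1, a tropomyosin of stress fibres, was higher at the high than at the low dose of Pinellia (0.16 ± 0.03, SE, adjusted p = 0.0102), Scutellaria (0.12) and dried ginger (0.11). It was called above vehicle at no high dose (-0.2 to 0.05) and below vehicle at the low dose of 3 extracts. The Pinellia value was the only member call of that extract between high and low dose, and was lost in 4 of 6 fits that left out 1 library. The dried ginger call of TPM1 was lost in 3 of 6 such fits and in 3 other settings. Antisense transcripts share 16.1% (TPM1-AS) and 5.37% (AC079328.2) of the TPM1 exon bases. The actin cross-linker ACTN1 fell with fresh ginger (-0.17), a call lost in 4 of 6 fits that left out 1 library. The cadherin CDH2 rose with Scutellaria by 0.09, lost in 5 of 6 other settings.

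Few members were called between the medium and the low dose. Of the 36 members, 1 was called with dried ginger (0.565% of all genes) and 0 with Sayeok-tang (0.239%), Bojungikgi-tang (0%), fresh ginger (0.0662%), Scutellaria (0.0302%) and Pinellia (0.0302%). The 1 call was LOXL2, with 125, 129 and 128 CPM at the low, 144, 154 and 146 CPM at the medium and 213, 221 and 215 CPM at the high dose of dried ginger. Its change between medium and low dose was 0.21 ± 0.04 (SE, adjusted p = 0.00888), and it was lost when replicate 1 of the low or replicate 2 of the medium dose was left out. At an unadjusted p under 0.05 in edgeR's test, 6 members passed with Sayeok-tang, 3 with Bojungikgi-tang, 10 with dried ginger, 12 with fresh ginger, 6 with Scutellaria and 4 with Pinellia. DESeq2 called 11 member changes over the 6 extracts in place of 1. The shares of all genes passing at the unadjusted threshold or with DESeq2 are not given here, so these counts are not read as a response of the members.

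Dried and fresh ginger are materials of the same plant species and were given at equal doses. Their sample names begin with the same number, called a set here, so their effects can be set against each other. The labels do not say whether they shared a source or lot. At the high dose 16 members were higher with dried than with fresh ginger (11.3% of all genes) and 3 were lower (11.3%). A separate test of whether the change between low and high dose differed between the 2 gave 12 members with a higher change in dried ginger (5.56% of all genes) and 1 with a lower one (5.67%). The 12 included all 3 proteolysis genes. The widest differences were PLAUR with a difference of 0.73 ± 0.1 (SE, adjusted p = 5.06e-06) and PLAU with 0.61 ± 0.06 (6.91e-08). LTBP2 differed by 0.61 ± 0.08 (adjusted p = 8.68e-06), LOXL2 by 0.47 ± 0.06 (2.72e-06), ITGA5 by 0.46 ± 0.06 (1.41e-06) and COL12A1 by 0.42 ± 0.13 (0.0267), the COL12A1 call being lost in 6 of 12 fits that left out 1 library. PLAUR had 22.8, 20 and 21.4 CPM at the high dose of dried ginger, against 13.7, 13.9 and 12.7 CPM with fresh ginger, and the libraries did not overlap.

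Of the 5 collagens that fell with fresh ginger, none differed between the 2 gingers in its dose change at adjusted p under 0.05. Differences were -0.13 ± 0.1 for COL1A1, 0.04 ± 0.06 for COL4A1, 0.11 ± 0.06 for COL4A2, 0.17 ± 0.07 for COL5A1 and 0.02 ± 0.07 for COL5A2 (SE, n = 3 per group), with edgeR adjusted p of 0.481, 0.748, 0.317, 0.154 and 0.907. At the high dose itself COL5A1 was higher with dried ginger, at 94.1, 99.5 and 89 CPM against 80.7, 83.4 and 75.8 CPM with fresh ginger (0.23 ± 0.05, SE, adjusted p = 0.0018). PMEPA1 fell less with dried ginger, by a difference of 0.22 ± 0.05 (SE, adjusted p = 0.00259), and SKIL fell more (-0.21 ± 0.06, adjusted p = 0.0249), a call lost in 7 of 12 fits that left out 1 library. The number of members whose change differed was 7 to 13 over the fits that left out 1 library.

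**Figure D4:**
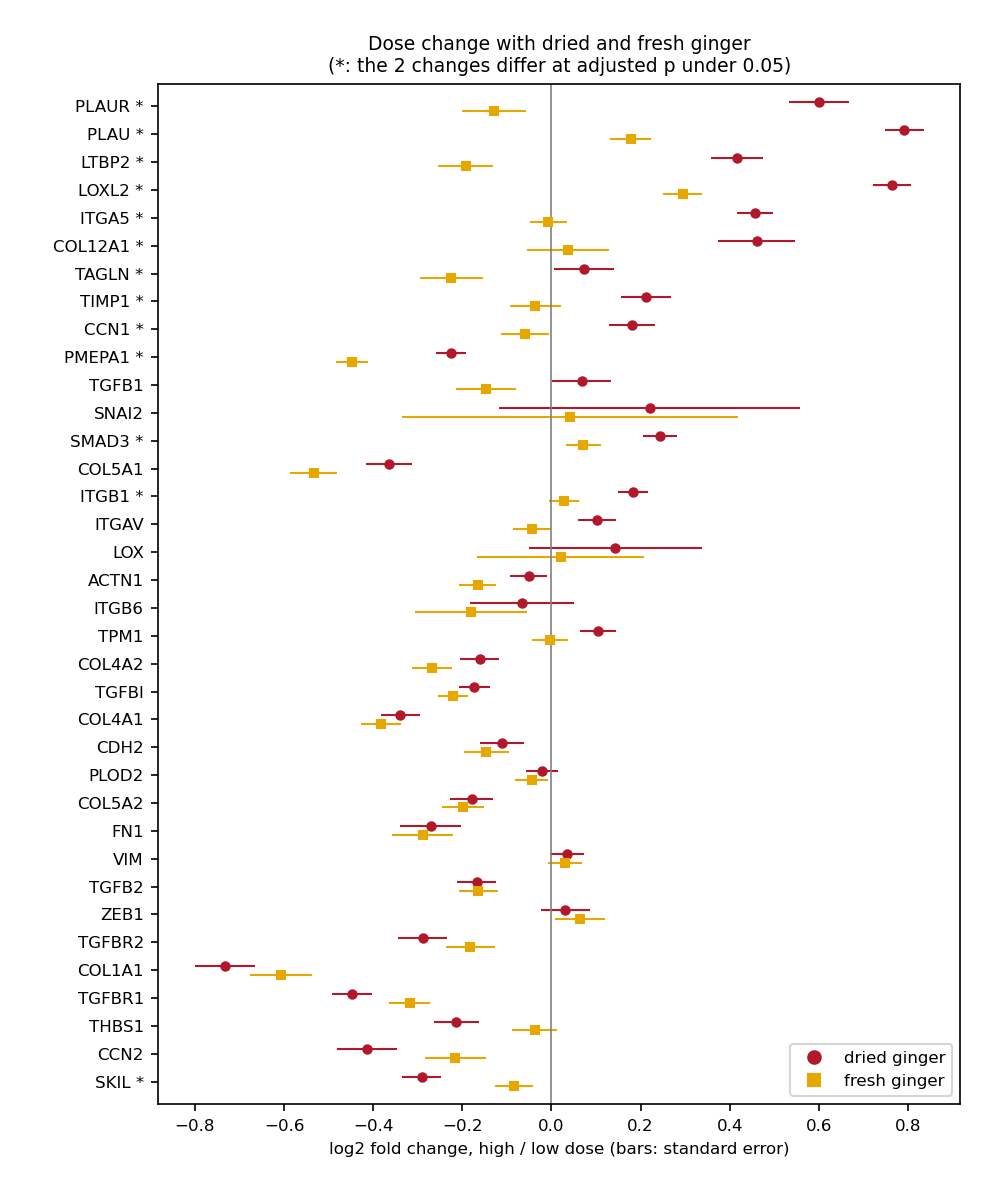
Log2 fold change between high and low dose of the 36 genes with dried ginger (red circles) and fresh ginger (yellow squares), with standard errors, ordered by the difference; asterisks mark the 13 genes whose changes differed at adjusted p under 0.05. PLAUR, PLAU and LTBP2 are at the top with the widest gaps, and the 5 falling collagens have close pairs without an asterisk.

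Between the 2 water-extracted formulas, 4 members were called for Sayeok-tang against Bojungikgi-tang at the high dose (2.05% of all genes). LOXL2 (0.28 ± 0.04, SE, adjusted p = 4.16e-06), CCN1 (0.22 ± 0.05, 0.00609) and ITGA5 (0.19 ± 0.05, 0.0249) were higher with Sayeok-tang, and COL1A1 was lower (-0.27 ± 0.06, 0.00562). Of 5 fits that left out 1 library, CCN1 and ITGA5 were each lost in 2 and COL1A1 in 1, and ITGA5 was also lost with DESeq2. COL1A1 had 25.8, 24.1 and 24 CPM with Sayeok-tang, against 30.3 and 28.9 CPM with Bojungikgi-tang. The change between doses differed for 1 member (0.275% of all genes), again COL1A1 (-0.37 ± 0.08, SE, adjusted p = 0.0325), but this call was lost with DESeq2, in the fit of all 60 libraries and in 7 of 10 fits that left out 1 library.

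Against vehicle, the comparisons of the 6 extracts all share the same 3 vehicle libraries. PMEPA1 was called below vehicle at the high dose of 5 extracts and at the low dose of 5, with log2 changes of -0.62 to -0.07 and -0.18 to -0.09 over the 6. COL1A1 was called below vehicle at the high dose of 4 extracts (-0.72 to 0.16 over the 6) and called at no low dose (-0.09 to 0.06). At the high dose 24 of 36 members were called with dried ginger (39.2% of all genes, either direction), 23 with Scutellaria (40.3%), 17 with fresh ginger (13.4%), 16 with Sayeok-tang (18.9%), 5 with Pinellia (8.93%) and 3 with Bojungikgi-tang (3.73%). At the low dose 8 were called with Scutellaria (8.89%), 7 with fresh ginger (6.48%), 6 with Sayeok-tang (8.34%), 6 with Pinellia (5.51%), 5 with Bojungikgi-tang (6.94%) and 4 with dried ginger (3.6%). The titles of all libraries name the same batch (Second_BatchC). Sample names begin with C1 for vehicle and with 8, 9 or 10 for these extracts. The labels do not say what these first parts mean, so a difference in handling or solvent cannot be told apart from the treatment here. Without vehicle replicate 3 the low-dose calls over the 6 extracts numbered 22 in place of 36.

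Among the low-dose calls, FN1 was above vehicle and TAGLN below it in each of the 6 extracts. FN1 had 757, 760 and 797 CPM at the low dose of fresh ginger and 621, 673 and 648 CPM at that of Sayeok-tang, against 548, 533 and 541 CPM in vehicle. Its log2 changes ran between 0.26 (Sayeok-tang) and 0.51 (fresh ginger), and the Sayeok-tang call was lost in 1 other setting and in 5 of 6 fits that left out 1 library, the Bojungikgi-tang call in 2 of 5. TAGLN, the smooth-muscle actin-binding protein transgelin, had 27.8, 29.1 and 32.4 CPM at the low dose of dried ginger and 31.5, 38 and 35.6 CPM at that of Scutellaria, against 39.9, 41 and 42 CPM in vehicle. Its log2 changes ran between -0.46 (dried ginger) and -0.22 (Scutellaria), and the Scutellaria and Bojungikgi-tang calls were each lost in 1 fit that left out a library. All low-dose libraries of both genes lay outside the vehicle range on the same side. The opposite-strand gene PCSK7 shares 11.4% of the TAGLN exon bases.

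**Figure D5:**
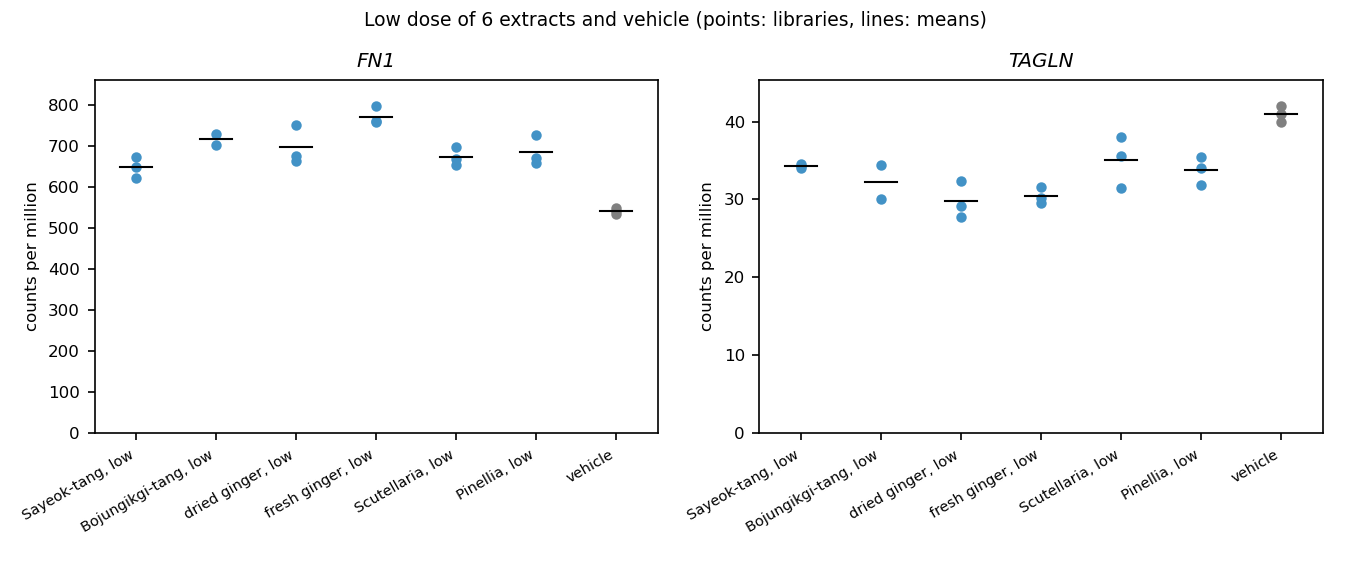
Level in CPM of FN1 and TAGLN in every library of the low dose of the 6 extracts and of vehicle (grey, right), with means as black lines. All low-dose libraries lie above vehicle for FN1 and below vehicle for TAGLN.

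Coptis and Zizyphus had no replicates, so their values are given without a test and stand as differences between single libraries and the vehicle mean. Ratios were taken on log2 values after adding 0.5 CPM. On that scale, none of the 36 members passed a 2-fold change outside the vehicle range at any dose, where the share past it, among 13743 genes averaging 1 CPM or more, was 0.327, 0.713 and 1.89% at the low, medium and high dose of Coptis and 0.189, 0.175 and 0.211% for Zizyphus. The largest member ratio was LOXL2 at the high dose of Coptis, with 208 CPM against a vehicle mean of 127 ± 5.69 CPM (SD, n = 3). CCN1 had 66.9 CPM there, against 41.2 ± 0.401 CPM in vehicle, its highest level in the series. CCN2 had 45.8 CPM, against 32.7 ± 1.1 CPM, also its highest level in the series, and COL12A1 16.5 CPM against 10.3 ± 1.37 CPM. TGFBR1 had 107 CPM against 157 ± 6.97 CPM. The Coptis libraries with the high mitochondrial shares were those of the medium and low dose (LOXL2 at 192 and 160 CPM); the high dose had 9.92%, and the part of this in the values was not tested. SNAI2 had 0.313 CPM at the medium dose of Zizyphus, against 0.685 ± 0.236 CPM in vehicle (SD, n = 3), a log2 ratio of -0.54 with the added 0.5 CPM but -1.13 without it, past 2-fold. Without the added value, the other 35 members lay between -0.29 and 0.32 on the log2 scale at the 3 doses of Zizyphus.

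Genes of the same pathways outside the 36 were counted for the high against the low dose with the same test, and the shares of all genes called are those given for each extract above. Of 15 further TGF-beta pathway genes, 2 were higher and 2 lower with dried ginger, 5 and 1 with Scutellaria, 2 and 1 with Sayeok-tang and 0 and 4 with fresh ginger. With dried ginger, 16.8% and 16% of all genes were called higher and lower, and its 2 and 2 of 15 were not above those shares. In dried ginger the ubiquitin ligase SMURF2 (0.44) and the latent binding protein LTBP4 (0.38) were higher and the co-receptor TGFBR3 (-0.5) and the mediator SMAD2 (-0.22) lower. Of 15 further YAP and TAZ pathway genes, dried ginger had 4 higher and 6 lower, with FJX1 (0.71) and the receptor kinase AXL (0.35) highest and the YAP kinase LATS2 (-0.53) and the factor TEAD1 (-0.29) lowest. Scutellaria had 6 higher and 2 lower, Sayeok-tang 3 and 2 and fresh ginger 2 and 1.

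Of 25 further matrix genes, of which 23 to 24 passed the filter, dried ginger had 9 higher and 4 lower, Scutellaria 6 and 3, Sayeok-tang 2 and 2 and fresh ginger 0 and 4. The 4 lower with dried ginger and the 3 lower with Scutellaria were near or under the shares of all genes (16% and 15.6%). With dried ginger, the collagen VI chain COL6A2 rose (0.62 ± 0.08, SE, adjusted p = 8.93e-07 in edgeR's test), and the metalloprotease inhibitor TIMP3 (-0.47) and the matricellular protein SPARC (-0.46) fell. Bojungikgi-tang gave 1 call among the 3 lists, the YAP pathway gene AJUBA (0.2), and Pinellia 0. Beside the dried ginger changes, the 6 epithelial markers summed to 3536 to 3679 CPM at the high dose, against 5315 to 5420 CPM at the low dose, with 1 higher and 2 lower of the 6. They summed to 4613 to 4788 CPM at the high dose of Sayeok-tang, against 5530 to 5884 CPM at the low dose (1 higher, 3 lower). With fresh ginger they summed to 4856 to 4911 CPM, against 5478 to 5872 CPM (0 higher, 2 lower), and with Scutellaria to 5029 to 5342 CPM, against 5544 to 6321 CPM (0 higher, 1 lower). Bojungikgi-tang had 5309 to 5328 CPM at the high dose, against 5500 to 5517 CPM at the low dose, with none of the 6 called. Almost all of each sum was KRT8 and KRT18, with medians of 3116 and 2322 CPM over all libraries. Medians were 31.3 CPM for CDH1, 21.5 for KRT19, 5.04 for EPCAM and 1.83 for MUC1, so the sums say little about these. In dried ginger, the fibroblast markers summed to 12.8 to 14.2 CPM, against 14.4 to 15.7 CPM, and the immune markers to 16.8 to 17.9 CPM, against 8.65 to 9.27 CPM, where CD68 was the most abundant and PTPRC and CD3E were at or near 0. The part of these markers in the member changes was not tested.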

How the data were processed

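Messenger RNA of A549 cells was sequenced as 100 bp paired reads from a directional kit, per the labels' protocols. The deposited values are expected counts per Ensembl gene, made by the authors with FastQC 0.11.9, Trim Galore 0.6.5, STAR 2.7.3a and RSEM 1.3.3 on hg38 (GRCh38), per the submitters' processing notes; the annotation release is not given in the sources used here. Of 269 value columns, 209 were not used, being of other sets. Expected counts were rounded to whole numbers. Genes passing filterByExpr (minimum count 10) were fitted with edgeR 4.0.16 in R 4.3.3 (TMM scaling, quasi-likelihood test), in 3 fits by set with the vehicle libraries in each, and p-values were adjusted by Benjamini-Hochberg over all genes of a fit. Depth was 17.51 to 38.54 M counts per library, which limits precision for SNAI2 and LOX. Positions, exon lengths and overlaps are from GENCODE 29, and promoters from RefSeq.

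Described in full were members called between high and low dose in at least 3 of the 6 replicated extracts, or called with a log2 change of at least 0.5 at a mean of at least 5 CPM; other members named beside them were chosen after their values were seen. The members and lists were chosen with earlier results of these data known. The alternatives were DESeq2 1.42.0, other size factors, no filter, a replicate block, removal of a length and GC trend, 1 fit of all 60 libraries and leaving out each library. Leaving out replicate 2 of the medium dose of fresh ginger from all ginger comparisons and ratios of single libraries without the added 0.5 CPM were chosen after seeing the data. The fitting code was tested on simulated data. Some genes of the other lists are not reported here by name.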

Additional observations from a re-analysis of the deposited data

Results flagged for a closer look

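For 13 members the change between low and high dose differed between dried and fresh ginger by a test of the difference itself (edgeR, Benjamini-Hochberg adjusted p under 0.05), given as dried minus fresh on the log2 scale. The differences were 0.73 for PLAUR, 0.61 for PLAU, 0.61 for LTBP2, 0.47 for LOXL2, 0.46 for ITGA5 and 0.42 for COL12A1. Smaller ones were 0.3 for TAGLN, 0.25 for TIMP1, 0.24 for CCN1, 0.22 for PMEPA1, 0.17 for SMAD3, 0.16 for ITGB1 and -0.21 for SKIL. Of these, TAGLN lost its call in 4 of 6 other settings and in 10 of 12 fits that left out 1 library, and SMAD3 in 2 and 9. Of the 12 fits that left out 1 library, TIMP1 lost its call in 8, SKIL and ITGB1 in 7 each (ITGB1 also in 1 other setting), and COL12A1 and CCN1 in 6 each. The calls of PLAUR, PLAU, LTBP2, LOXL2, ITGA5 and PMEPA1 were lost in none of the settings and fits run. The dose change of COL1A1 differed between Sayeok-tang and Bojungikgi-tang by -0.37 in the same kind of test.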

How the results depend on the processing

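Over the 6 replicated extracts, members called between high and low dose numbered 73, and 68 to 74 when 1 library was left out. Those of the medium against the low dose numbered 1, but 11 with DESeq2, 6 without the filter, 4 with the replicate block, 3 with the trend removed, 5 in 1 fit of all libraries and 0 to 4 with a library left out. By extract, these were 1 (DESeq2) and 1 (trend) for Sayeok-tang; 2 with DESeq2, no filter and 1 fit, and 0 to 2 with a library left out, for dried ginger; 3 (DESeq2), 2 (no filter), 2 (block), 1 (trend), 3 (1 fit) and 0 to 3 for fresh ginger; 4, 1 (no filter), 1 (block) and 0 to 1 for Scutellaria; and 1 with DESeq2 and 1 without the filter for Pinellia.

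Between high and low dose, Pinellia had 2 with DESeq2, 3 without the filter, 2 with the trend removed and 0 to 1 with a library left out. Bojungikgi-tang had 1 in 1 fit of all libraries and 0 to 1 with a library left out, and fresh ginger 8 to 16. Low dose against vehicle, dried ginger had 8 (DESeq2), 8 (trend), 9 (1 fit) and 2 to 7 with a library left out. Fresh ginger had 12, 12 (trend, 1 fit) and 5 to 11, Bojungikgi-tang 9 (trend) and 0 to 7, Sayeok-tang 2 to 7, Scutellaria 4 to 8, and all 6 extracts 22 to 40. High dose against vehicle, Pinellia had 3 without the filter, 3 with the trend removed and 2 to 8 with a library left out, and Bojungikgi-tang 2 to 5. Sayeok-tang against Bojungikgi-tang gave 2 to 4 at the high dose, and for the dose change 0 with DESeq2, 0 in 1 fit and 0 to 1 with a library left out. The dose change of dried against fresh ginger gave 7 to 13. Without replicate 2 of the medium dose of fresh ginger, calls were 7 (dried) and 11 (fresh) at the low dose against vehicle and 2 for medium against low dose of dried ginger. Of the single-library values, 0 were past 2-fold with 0.5 CPM added, but 1 was without it and 1 in 1 fit of all libraries, SNAI2 at the medium dose of Zizyphus. The cause of these moves was not tested.

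Deviations from the group mean correlated at -0.0501 to 0.12 between same-numbered libraries of different groups. In the ginger fit the median was 0.0187, against -0.00996 for libraries with other numbers. In the fit of the formulas the medians were -0.000862 and -0.000932, and in that of Scutellaria and Pinellia 0.00488 and -0.00303. Whether the replicate numbers mark shared handling was not tested. With the replicate block, 78 calls were made between high and low dose, in place of 73, and no called value changed sign under any setting run.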
